A study of Homo sapiens with 32 samples.

Results

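The homologous recombination and Fanconi anemia genes described here are 37 named genes, chosen by symbol for their place in these repair pathways. All 37 were among the 35587 gene symbols of the deposited expression matrix, and all 37 passed the filter on low counts that left 16824 genes for testing. They were measured by poly-A RNA-seq in U2OS, a human osteosarcoma cell line that carries wild-type p53. The cells had 1 of 4 genotypes. WT kept the p53 alleles as they were, and the authors' labels name it PAR, read here as the parental line. With CRISPR-Cas9, p53 was knocked out (KO), or A347D was placed on 1 allele of p53 (HET) or on both (HOM). A comparison with WT therefore sets edited cells against the parental line. A347D lies in the part of p53 through which it forms tetramers, and by the title of the series the mutant protein makes dimers. Cells of each genotype received DMSO, the solvent control, or 20 µM etoposide for 24 h. A group was 4 plates of cells, with 1 library each and 8 groups in all, so the p-values are about differences between plates. The number of edited clones behind each edited genotype is not given in the sources used here, and clone and genotype cannot be told apart.

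Etoposide stops topoisomerase II part-way through its reaction, which leaves broken DNA ends. In homologous recombination the ends are first cut back to single strands by RAD50, NBN, RBBP8 and EXO1, the BRCA proteins, RAD51B, RAD51C, XRCC2, XRCC3 and the RAD54 proteins then serve the invasion of a sister chromatid, and helicases and nucleases take the joined molecules apart. The Fanconi anemia pathway serves crosslinked DNA and stalled forks: a core complex with the ligase FANCL and the conjugating enzyme UBE2T attaches ubiquitin to the clamp of FANCD2 and FANCI, which recruits nucleases. Many of these genes are known to be transcribed mainly in S and G2 phase through E2F factors, and p53 is known to repress such genes through its target p21, encoded by CDKN1A. The study's design asks which responses to etoposide need p53, and how the A347D genotypes stand between WT and KO.

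The libraries held 18.25 to 24.19 M recovered counts, apart from replicate 2 of HET in etoposide with 8.05 M. CDKN1A rose with etoposide in WT (log2 change 2.88 ± 0.14, SE) and in KO (1.53 ± 0.14). Among osteoblast-lineage markers, SPARC, COL1A1 and RUNX2 were abundant while COL1A2 and BGLAP stayed under 50 normalized counts in every group mean. ALPL had group means of 64.7 to 181 and SPP1 of 169.6 to 592.2. The endothelial markers VWF and PECAM1 had group means of 64.1 to 234.4 and 8.84 to 50.07. Of the blood markers, PTPRC had group means of up to 30.08, LYZ of up to 5.85, CD3E of up to 3.66 and HBB of up to 0.483. The epithelial keratins KRT8 (2662 to 9311) and KRT18 (3814 to 18650) were abundant in all groups, while EPCAM and CDH1 reached at most 131.4 and 48.3. Libraries 2 to 4 of HOM in DMSO stood apart: genes of the mitochondrial genome took 20.7 to 21.9% of their counts, against 7.87 to 15.2% in the other 29 libraries. For the homologous recombination and Fanconi anemia genes, results that use this group are therefore given with and without those 3 libraries. In WT in DMSO, replicate 3 had the lowest level of RAD50, NBN, RBBP8, BRIP1, RMI1, BRCA2, XRCC2, RAD54B and FANCM among the 4 replicates. It was also the lowest for BRCA1, BARD1, PALB2, BLM, WRN, RAD52, RAD54L and SLX4. For FANCI, RMI2, EXO1, RAD51B, RAD51C, RAD51D, UBE2T, UIMC1, EME1 and FANCC it was the highest. Results that rest on this replicate are marked.

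**Figure D1:**
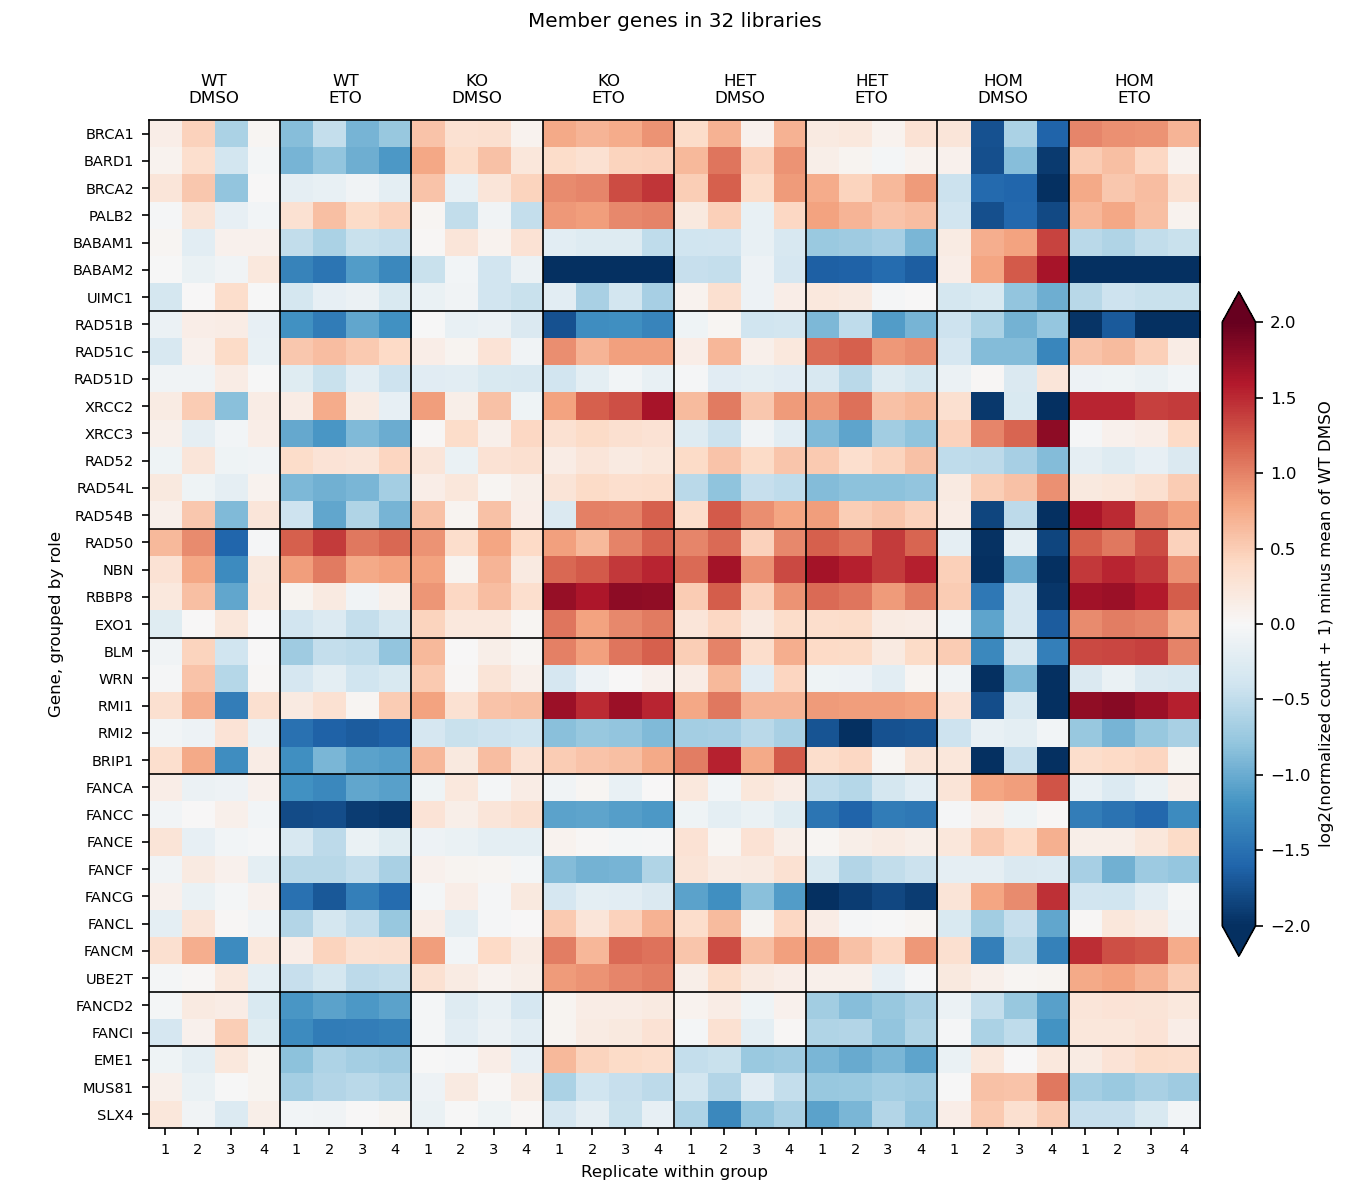
Level of the 37 genes (rows, ordered by role, with lines between roles) in all 32 libraries (columns, 4 replicates per group), as log2(normalized count + 1) minus the mean of the 4 WT DMSO libraries, with the colour scale ending at -2 and 2. Many rows of the WT etoposide columns are blue, many rows of the KO and HOM etoposide columns are red, and libraries 2 to 4 of HOM in DMSO differ from replicate 1 of their group.

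In WT cells, etoposide lowered much of the set. Of the 37 genes, 16 fell and 1 rose, where a gene counts as changed at an adjusted p under 0.05 and a change of at least 1.5-fold in limma's moderated test. Among all genes tested, 14.9% fell and 20.1% rose. The median log2 change of the 37 was -0.54, beside 0.05 over all genes. The genes that fell included both parts of the clamp, FANCD2 (-1.12) and FANCI (-1.35), 3 of the 8 core-complex genes, and 3 of the 7 BRCA-complex genes. RAD50, the structural protein of the end-binding MRN complex, was the gene that rose (1.20), a call that rested on 1 WT DMSO library. Without WT DMSO replicate 2 the number that rose was 2.

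In KO cells, 4 of the 37 fell and 8 rose, with 14.5% and 18.1% of all genes as background, and the median was 0.20 beside 0.05. The genes that rose were BRCA2 (0.89), PALB2 (1.16), RAD51C (0.72), RBBP8 (1.17), EXO1 (0.74), BLM (0.82), RMI1 (1.05) and UBE2T (0.77). BABAM2, RAD51B, FANCC and FANCF fell. The test of the difference between the responses found 13 genes with a higher log2 change in KO than in WT and 1 with a lower one, beside 7.11% and 8.13% of all genes. BLM fell in WT and rose in KO, and its response difference passed the test (1.44 ± 0.36, adjusted p = 0.00455). With libraries scaled to their total counts in place of the authors' size factors, the median of all genes moved by 0.24 in the WT response and 0.31 in the KO response, and the members split into 2 higher and 10 lower in WT (26.7% and 8.66% of all genes) and 14 higher and 3 lower in KO (29% and 6.95%).

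**Figure D2:**
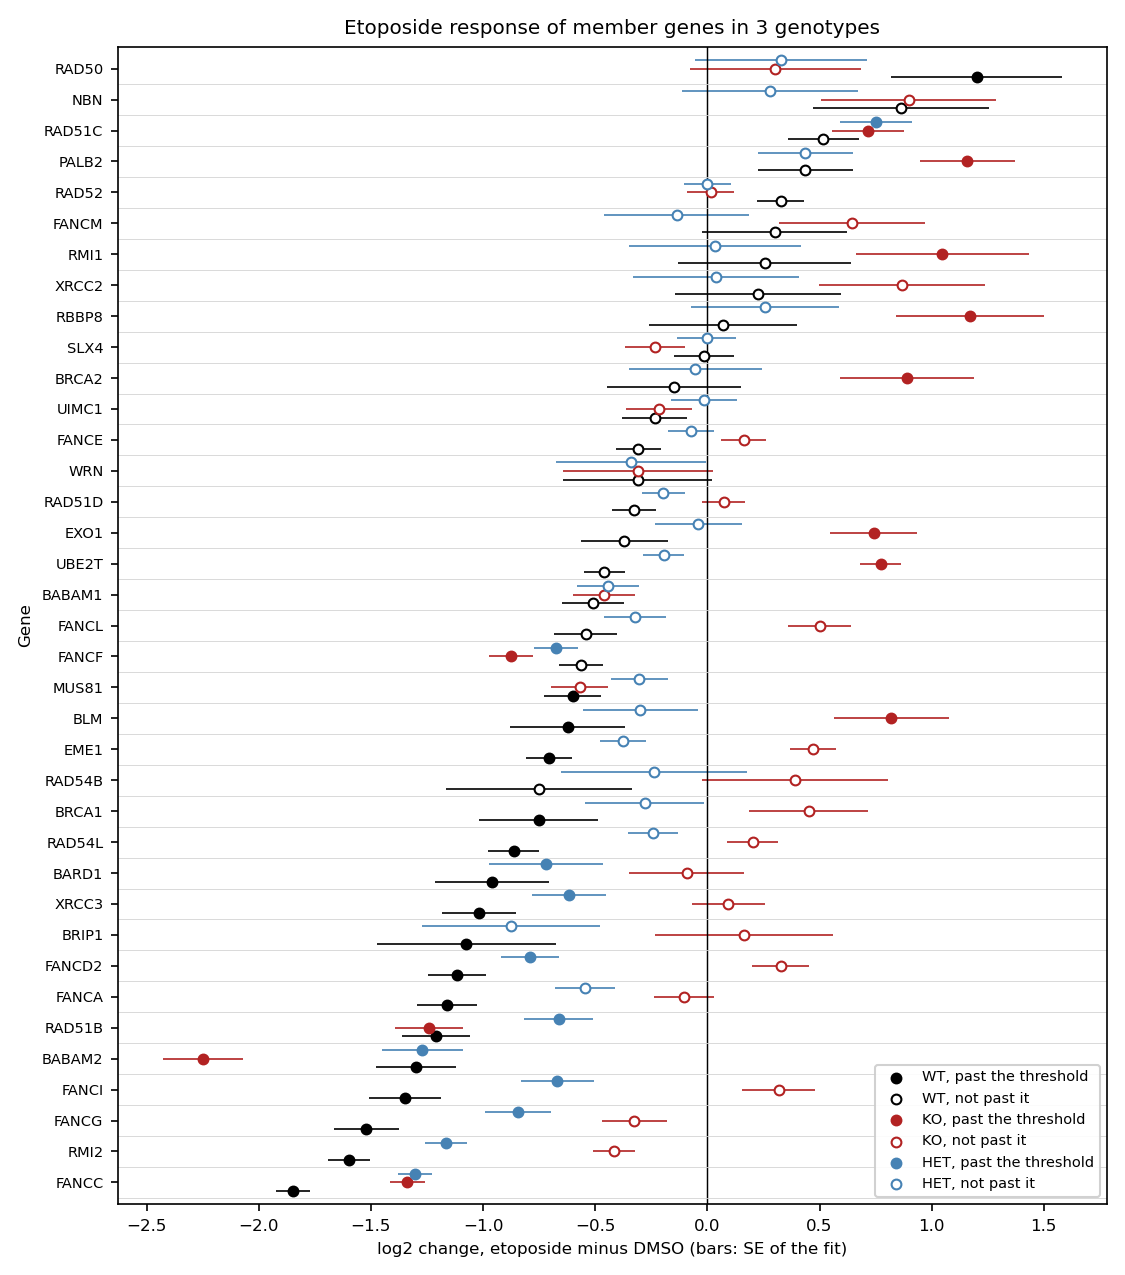
Log2 change with etoposide (x axis, etoposide minus DMSO; bars are the SE of the fit) for each gene (y axis, ordered by the WT value) in WT, KO and HET, with filled points for genes past the threshold. From FANCC at -1.85 to MUS81 at -0.60 most WT points lie at or left of the KO point of the same gene, with BABAM2 and RAD51B as exceptions.

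Compared directly in etoposide, most of the set was higher without p53. In KO against WT, 21 were higher and 1 lower, beside 11.7% and 15.0% of all genes, with a median of 1.01 beside -0.03. In HOM against WT, 20 were higher and 2 lower (background 14.0% and 14.7%, median 0.82). In HET against WT, 10 were higher and 1 lower (background 10.1% and 13.2%, median 0.38), or 17 higher and 0 lower under total-count scaling, where 16.4% and 7.33% of all genes were called and their median moved by 0.25. These 3 comparisons share the WT libraries in etoposide, so they are not independent of each other. The values of the 4 WT and 4 KO libraries in etoposide did not overlap for 28 of the 37 genes, and this held for 52.1% of all genes. In the authors' deposited table for KO against WT in etoposide, the same thresholds gave 21 members higher and 1 lower, and in their table for HOM against WT in etoposide 21 higher and 2 lower.

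**Figure D3:**
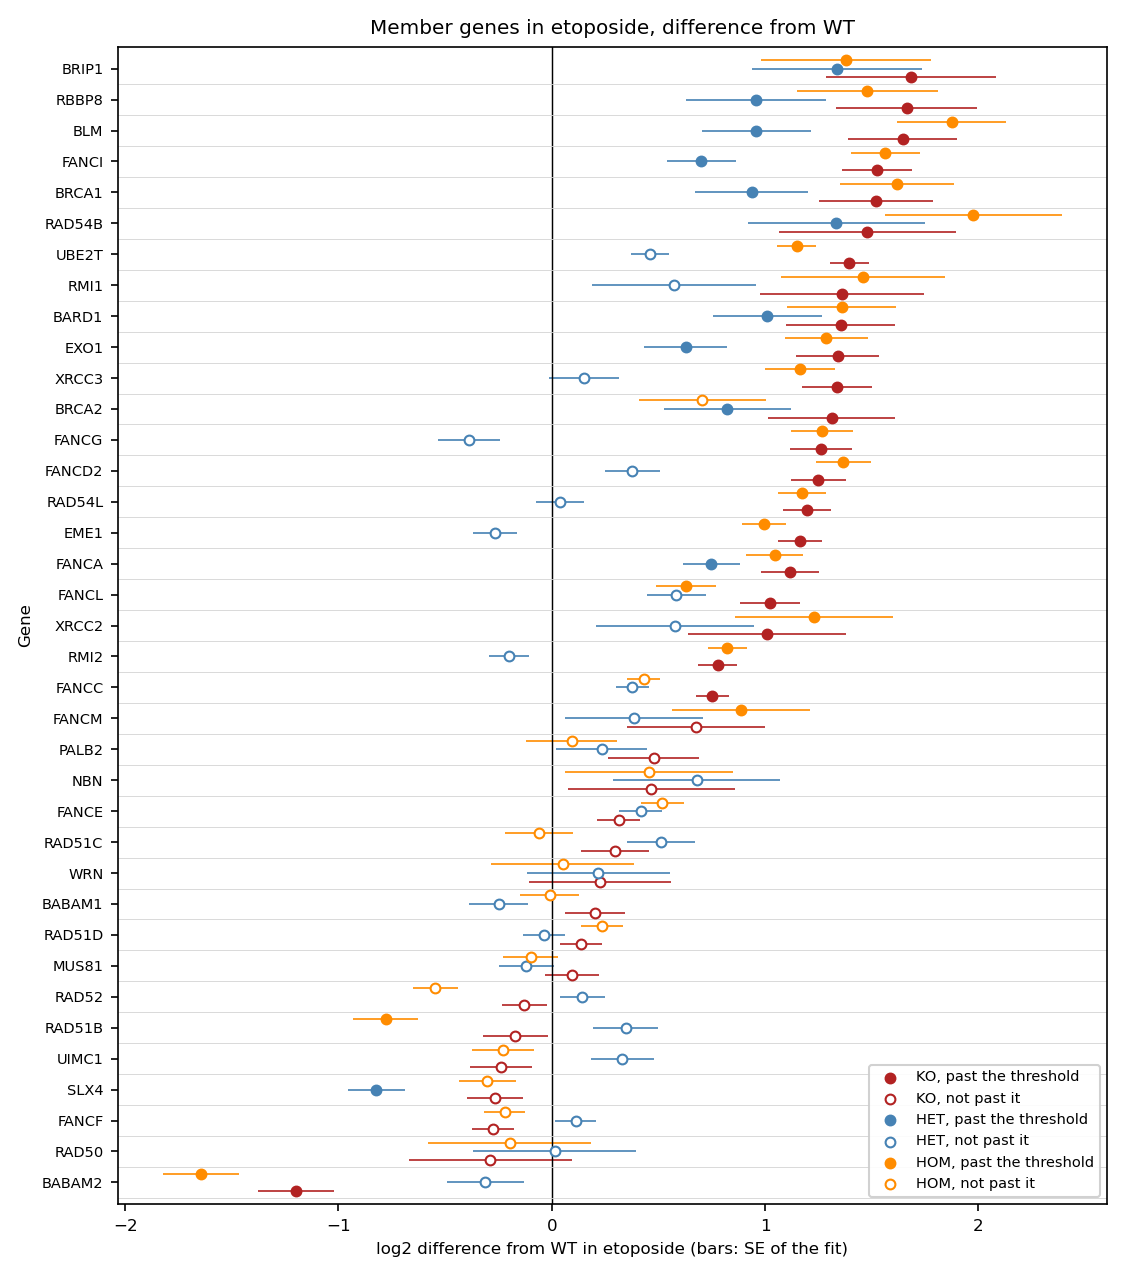
Log2 difference from WT in etoposide (x axis; bars are the SE of the fit) for each gene (y axis, ordered by the KO value) in KO, HET and HOM, with filled points for genes past the threshold. The 21 genes from BRIP1 at 1.68 down to FANCC at 0.75 were higher in KO than in WT, and BABAM2 at -1.20 was lower.

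Without etoposide, 0 of the 37 genes passed limma's test between KO and WT. The background was 2.75% higher and 5.59% lower, 3 members had an unadjusted p under 0.05, 2 had an adjusted p under 0.05 at a smaller fold, and the authors' deposited table gave 0 at the same thresholds. The log2 differences ran from -0.40 to 0.61, and for 20 of the 37 genes the 95% interval lay within a 1.5-fold difference in either direction. For the other 17 the interval reached past a difference of that size.

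Promoters are described because most of the genes were higher in KO than in WT in etoposide and many are known E2F targets. RefSeq promoter windows on GRCh38.p14, from 250 bases before to 50 bases after an annotated start, were found for 32 of the 37 genes. Both strands were searched for 5 E2F-type sequences, TTTGGCGC, TTTCCCGC, TTTCGCGC, TTTGGCGG and TTCCCGCC, the second and last of which can overlap. At least 1 was present in a window of 11 of the 32 genes (34.4%), against 10.5% of the tested genes with a window and 6.76% of all genes in the table. Of the 18 genes with a window that were higher in KO than in WT in etoposide, 10 held one: BRIP1, BLM, RMI1, EXO1, XRCC3, FANCD2, RAD54L, FANCL, XRCC2 and FANCC. RBBP8 (1.66), BRCA1 (1.52), UBE2T, BARD1, BRCA2, FANCG, EME1 and FANCA were higher and held none. This split was not made over all tested genes. Of the 14 other genes with a window, RAD52 was the 1 that held one. A CCAAT box (CCAAT) was in at least 1 window of 40.6% of the 32 genes against 42.5% of the tested genes with a window, and the CHR-type sequence TTTGAA of 9.38% against 14.5%. These matches are letters in a window and not measured binding. Below are the windows of FANCD2 (chr3:10026187-10026486, plus strand) and BLM (chr15:90717096-90717395, plus strand), with E2F-type matches in capitals, and of RAD50 (chr5:132556727-132557026, plus strand), which was not higher in KO and holds none.
FANCD2: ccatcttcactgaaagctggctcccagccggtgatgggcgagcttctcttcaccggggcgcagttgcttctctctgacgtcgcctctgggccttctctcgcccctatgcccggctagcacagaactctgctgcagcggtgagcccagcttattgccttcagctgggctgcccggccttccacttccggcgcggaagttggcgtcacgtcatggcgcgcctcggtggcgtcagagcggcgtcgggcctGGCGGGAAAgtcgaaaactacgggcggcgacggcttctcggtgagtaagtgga
BLM: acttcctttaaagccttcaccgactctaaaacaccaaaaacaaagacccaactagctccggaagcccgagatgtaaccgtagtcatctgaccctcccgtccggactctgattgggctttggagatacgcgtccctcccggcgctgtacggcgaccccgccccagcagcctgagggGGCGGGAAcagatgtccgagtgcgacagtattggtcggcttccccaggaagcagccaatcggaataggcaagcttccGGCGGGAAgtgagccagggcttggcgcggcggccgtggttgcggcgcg
RAD50: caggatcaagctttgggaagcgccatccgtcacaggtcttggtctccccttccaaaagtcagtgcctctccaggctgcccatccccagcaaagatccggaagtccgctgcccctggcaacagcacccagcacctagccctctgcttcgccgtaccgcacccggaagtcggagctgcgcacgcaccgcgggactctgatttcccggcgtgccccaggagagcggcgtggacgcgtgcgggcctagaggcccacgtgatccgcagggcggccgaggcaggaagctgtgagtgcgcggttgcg
In FANCD2 the matches overlap and begin 3 and 2 bases before the start site, on the minus strand. In BLM they begin 75 bases before and 2 bases after it, also on the minus strand.

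The clamp genes fell in WT and HET and did not fall in KO or HOM. FANCD2 encodes the clamp subunit whose ubiquitylation marks the activated pathway. Its normalized counts in WT were 1041, 1218, 1187 and 870.2 in DMSO and 475, 507, 481 and 511 in etoposide. In KO the FANCD2 values were 1046, 892, 965 and 849.7 in DMSO and 1112, 1190.4, 1182 and 1211 in etoposide. The treated WT libraries lay below all untreated ones and below all KO libraries, and the treated KO libraries lay above the untreated ones. FANCD2 in HET was 1118, 1182, 1005 and 1141 in DMSO and 659, 593, 635 and 681 in etoposide, so the treated HET values sat between those of WT and KO without overlap. HOM libraries had 991, 766, 629 and 503 FANCD2 counts in DMSO and 1270.2, 1292, 1284 and 1244 in etoposide. The log2 change was -1.12 ± 0.13 (SE, adjusted p = 2.78e-08) in WT, -0.79 ± 0.13 in HET and 0.33 ± 0.13 in KO, which was below the 1.5-fold threshold. The response difference between KO and WT was 1.44 ± 0.18 (adjusted p = 7.72e-07). FANCD2 has a named pseudogene copy, FANCD2P2, to which reads could be split.

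FANCI, the partner that closes the clamp around DNA, followed the same order. Its WT counts were 1702, 2277, 3004 and 1806 in DMSO and 895, 816, 818 and 836 in etoposide. In KO, FANCI stood at 2093, 1856, 1974 and 1854 in DMSO and 2224, 2404, 2444 and 2627 in etoposide. The WT groups did not overlap, although the DMSO libraries spread from 1702 to 3004. FANCI in HET was 2092, 2635, 1862 and 2178 in DMSO and 1409, 1423, 1239.9 and 1405 in etoposide. HOM had 2116, 1374, 1503 and 932 FANCI counts in DMSO and 2507, 2519, 2584 and 2338 in etoposide, where all 4 treated libraries exceeded every treated WT and HET library. The log2 change was -1.35 ± 0.16 (adjusted p = 6.22e-08) in WT and 0.32 ± 0.16 in KO, and the difference between them, 1.67 ± 0.23, was the largest of the 37 (adjusted p = 3.18e-06). In HET, FANCI fell (-0.67 ± 0.16), and without replicate 2 of HET in DMSO this change was -0.58, below the fold threshold.

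**Figure D4:**
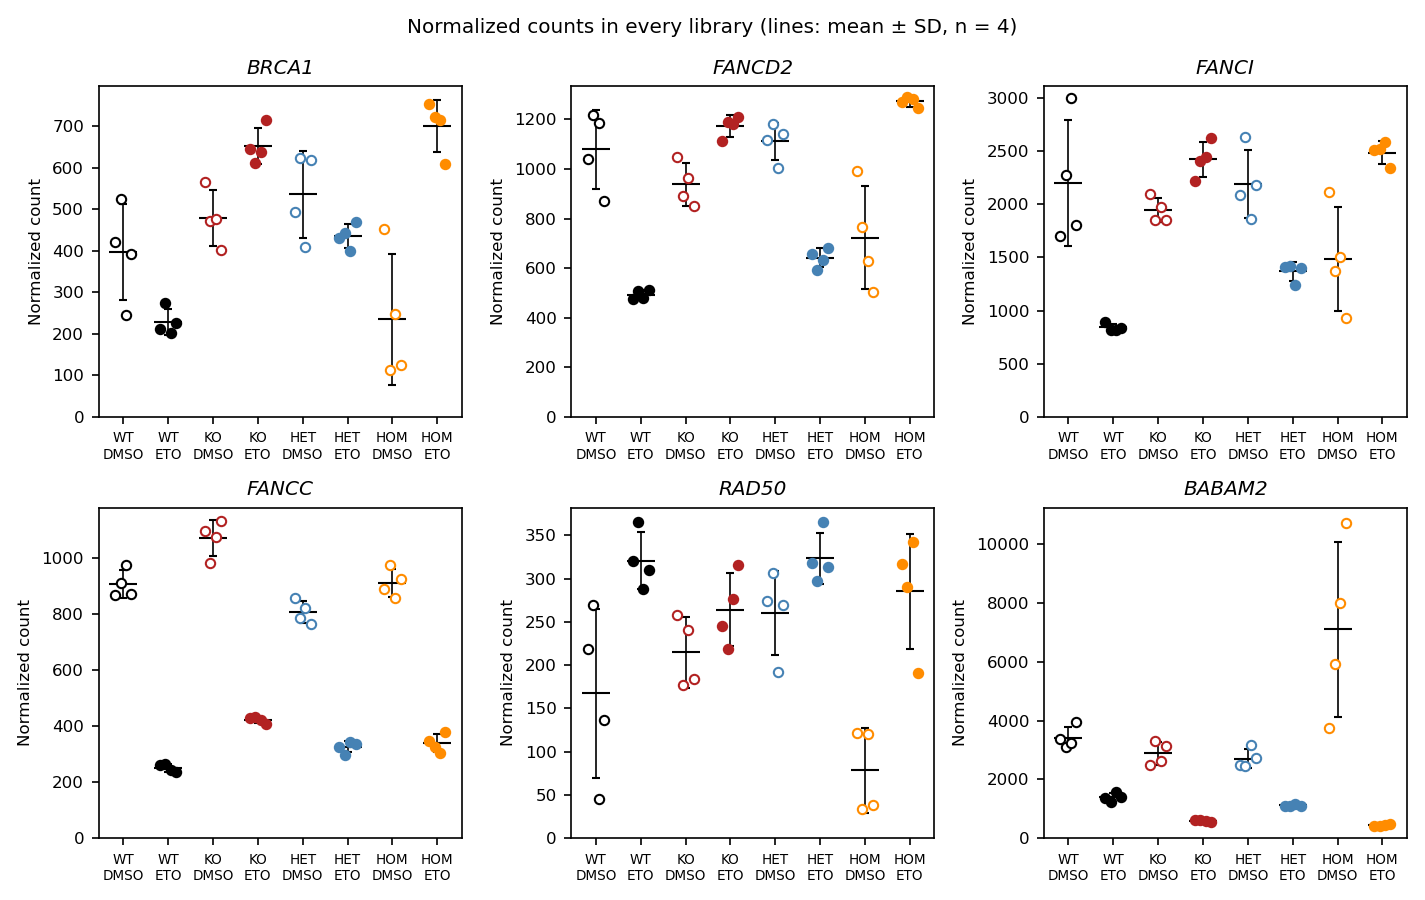
Normalized counts (y axis, from 0) of 6 genes in every library, with open circles for DMSO, filled circles for etoposide and black lines for mean ± SD (n = 4). FANCD2 and FANCI fall with etoposide in WT and HET but not in KO, FANCC and BABAM2 fall in all 4 genotypes, and RAD50 in WT DMSO spreads from 45.4 to 269.

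Of the 8 genes of the Fanconi core complex, 3 fell in WT, 2 in KO and 3 in HET, and UBE2T rose in KO. Among all genes 14.9% fell in WT, 14.5% in KO and 12.7% in HET, and 18.1% rose in KO. Whether the complex differed from those shares was not tested. FANCC, an adaptor subunit of the core complex, had the largest WT fall of all 37 genes. FANCC in WT was 870.2, 910.5, 977 and 871 in DMSO and 260.4, 264, 243 and 238 in etoposide. KO libraries had 1098, 984, 1076 and 1134 FANCC counts in DMSO and 429.6, 434, 422 and 409 in etoposide. The treated and untreated values did not overlap in either genotype, and the treated KO values lay above the treated WT values. The HET values of FANCC were 858, 788, 822 and 765 in DMSO and 328, 299, 344 and 336 in etoposide, and those of HOM were 892, 975, 857 and 926 and 347, 326, 306 and 380.1. FANCC therefore fell in all 4 genotypes, with log2 changes of -1.85 ± 0.08 in WT, -1.34 ± 0.08 in KO, -1.30 ± 0.08 in HET and -1.43 ± 0.08 in HOM. Without libraries 2 to 4 of HOM in DMSO the HOM value was -1.39. Compared with WT, the FANCC response in KO differed by 0.51 ± 0.11 (adjusted p = 0.001), below the fold threshold.

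FANCG, a scaffold subunit that binds FANCA, was the core-complex gene that was lower in HET than in WT in DMSO, where FANCM was higher. FANCG in WT was 3902, 3351, 3558 and 3874 in DMSO and 1302, 1134, 1426 and 1265 in etoposide. In HET it was 1744, 1569, 2046 and 1688 in DMSO and 908, 984, 1039.5 and 978 in etoposide, below all WT libraries of the same treatment. The HET difference from WT passed the test in DMSO (-1.06 ± 0.15, adjusted p = 9.47e-07) and not in etoposide (-0.39 ± 0.15). KO had 3583, 4023, 3588 and 4192 FANCG counts in DMSO and 2906, 3206, 3154 and 2998 in etoposide, and HOM had 4372, 6347, 7044 and 10075 and 2806, 2788, 3178 and 3579.9. FANCG fell in WT (-1.52 ± 0.15) and HET (-0.84 ± 0.15), and its KO change was -0.32 ± 0.15. Compared with WT, the FANCG response in HET differed by 0.68 ± 0.21 (adjusted p = 0.0482), and it missed the threshold in 13 of the 16 fits that left out 1 library, with values of 0.62 to 0.71 and adjusted p of 0.0566 to 0.111.

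FANCA, the core subunit most often mutated in the disease, fell in WT (-1.16) and its KO and HET changes did not pass (-0.10 and -0.55). In etoposide FANCA was higher than in WT in KO (1.12), HET (0.75) and HOM (1.04). UBE2T, the conjugating enzyme, rose in KO (0.77 ± 0.09), with -0.46 ± 0.09 in WT, and the responses differed (1.23 ± 0.13, adjusted p = 2.93e-08). FANCL, the ligase, had changes of -0.54 in WT and 0.50 in KO that did not pass, while their difference did (1.04 ± 0.20). FANCF, an adaptor subunit, fell in KO (-0.88) and HET (-0.67), and its WT value was -0.56. FANCM, the translocase that anchors the complex on DNA, was 0.30 in WT and 0.64 in KO, and FANCE, the subunit that contacts FANCD2, was -0.31 and 0.16, none past the threshold.

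Among the BRCA complexes, BRCA1 and BARD1 fell in WT and BRCA2 and PALB2 rose in KO. When the KO response was tested against the WT response, BRCA1 was called, and BARD1, BRCA2 and PALB2 were not. BRCA1 forms a ubiquitin ligase with BARD1 and promotes resection. The WT counts of BRCA1 were 421, 526, 246 and 391 in DMSO and 212, 273, 201 and 226 in etoposide, and replicate 3 in DMSO lay within the treated range. In KO they were 566, 472, 477 and 402 in DMSO and 645, 612, 637 and 715 in etoposide. The 4 treated KO libraries exceeded the untreated KO libraries and the treated WT libraries. HET had 494, 622, 408 and 619 BRCA1 counts in DMSO and 431, 443, 400.1 and 468 in etoposide, the treated values lying between those of WT and KO. HOM had 453, 114, 247 and 125 in DMSO, where libraries 2 to 4 were low, and 753, 721, 716 and 609.7 in etoposide. In etoposide, BRCA1 differed from WT by 1.52 ± 0.27 in KO (adjusted p = 3.1e-05), 0.94 ± 0.27 in HET and 1.62 ± 0.27 in HOM. The WT fall of -0.75 ± 0.27 (adjusted p = 0.0206) was less firm. It was lost without WT DMSO replicate 1 (adjusted p = 0.0505), WT DMSO replicate 2 (0.0819) or WT etoposide replicate 3 (0.0532), and under total-count scaling (0.23). The response difference between KO and WT, 1.20 ± 0.38 (adjusted p = 0.0229), was lost without WT DMSO replicate 2 (0.0596) or KO DMSO replicate 4 (0.0515), and under total-count scaling (0.0807).

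BRCA2, which prepares resected single-stranded DNA for strand invasion, showed the KO rise. BRCA2 counts in WT were 158, 194, 77.2 and 135 in DMSO and 118, 120.4, 127 and 117 in etoposide, and the groups overlapped. KO had 199, 119.9, 159 and 182 BRCA2 counts in DMSO and 258, 264, 333 and 361 in etoposide, without overlap. HET values were 188, 309, 173 and 242 in DMSO and 224, 182, 211 and 243 in etoposide. HOM values were 98.5, 44.8, 43.8 and 19.1 in DMSO and 227, 195, 206 and 166 in etoposide. In etoposide all KO, HET and HOM libraries exceeded the 4 WT libraries. The KO rise was 0.89 ± 0.30 (adjusted p = 0.0155), and without KO DMSO replicate 2 it was 0.75 (adjusted p = 0.0625). Tested against the WT response, the KO response of BRCA2 was not called. BRCA2 was higher than in WT in etoposide in KO (1.31 ± 0.30) and HET (0.82 ± 0.30, adjusted p = 0.0315), and the HET call was lost in 7 of the 8 fits that left out 1 library (adjusted p of 0.0512 to 0.0754). The HET difference in DMSO (0.73) was 0.47 without WT DMSO replicate 3 (adjusted p = 0.21), and it was also lost without WT DMSO replicate 4 (0.0773), HET DMSO replicate 2 (0.163) or HET DMSO replicate 4 (0.0933).

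BARD1 fell in WT (-0.96 ± 0.26) and HET (-0.72 ± 0.26), and its KO change was -0.09 ± 0.26. Tested against the WT response, that KO change was not called. PALB2, the bridge between BRCA1 and BRCA2, rose in KO (1.16 ± 0.21, adjusted p = 5.59e-05) with 0.44 ± 0.21 in WT, and the difference between the responses did not pass (0.72 ± 0.30, adjusted p = 0.0983). BABAM2, a subunit of the BRCA1-A complex that restrains resection, went the other way from most of the set. BABAM2 in WT was 3391, 3113, 3247 and 3953 in DMSO and 1356, 1239, 1579 and 1394 in etoposide. In KO the BABAM2 counts were 2506, 3292, 2619 and 3137 in DMSO and 634, 634, 601 and 548 in etoposide, so every treated KO library lay below every treated WT library. HET had 2487, 2458, 3185 and 2716 in DMSO and 1103, 1113, 1169 and 1086 in etoposide. HOM libraries had 3754, 5921, 7988 and 10727 BABAM2 counts in DMSO and 402, 424, 452 and 500.0 in etoposide, the lowest treated values of the 4 genotypes. BABAM2 fell by more in KO (-2.25 ± 0.18) than in WT (-1.30 ± 0.18), and the difference passed the test (-0.95 ± 0.25, adjusted p = 0.00752). The HOM response was -3.90 ± 0.18, or -3.08 without libraries 2 to 4 in DMSO, and it differed from that of WT by -2.60 with and -1.78 without them. The exons of BABAM2 overlap MRPL33 on the same strand and RBKS on the opposite strand. BABAM1 and UIMC1, other subunits of that complex, passed in none of the WT, KO and HET responses, with values from -0.51 (BABAM1 in WT) to -0.01 (UIMC1 in HET).

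The strand-exchange genes were divided. RAD51B fell in WT (-1.21 ± 0.15), KO (-1.24 ± 0.15) and HET (-0.66 ± 0.15), with a difference between KO and WT of -0.03 ± 0.21. RAD51C rose in KO (0.72 ± 0.16) and HET (0.75 ± 0.16), with 0.52 ± 0.16 in WT, which missed the fold threshold. XRCC3, the partner of RAD51C, fell in WT (-1.02 ± 0.16) and HET (-0.62 ± 0.16) but not in KO (0.09 ± 0.16), and the KO and WT responses differed (1.11 ± 0.23). XRCC2 passed in none of these 3 responses (0.23 in WT, 0.87 in KO and 0.04 in HET), and in etoposide it was higher than in WT in KO (1.01) and HOM (1.23). RAD52, a single-strand annealing protein, passed in none of the responses, with 0.33 in WT.

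RAD51D, which acts with XRCC2, passed in none of the 17 comparisons. Its group means ran from 386 ± 31.8 (SD, n = 4) in HET in etoposide to 497 ± 37.5 in WT in DMSO.

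RAD54L, a motor protein that drives strand invasion, fell in WT. The WT counts of RAD54L were 1071, 876, 822 and 975 in DMSO and 497, 476, 496 and 583 in etoposide. KO had 1023, 1093, 957 and 1014 RAD54L counts in DMSO and 1112, 1219, 1178 and 1189.6 in etoposide, the treated values being slightly higher, without overlap. RAD54L in HET was 638, 534, 673 and 654 in DMSO and 512, 529, 524 and 537 in etoposide, already below WT in DMSO, and in HOM 1054, 1305, 1404 and 1758 and 1069, 1092, 1157 and 1321. The log2 change was -0.86 ± 0.11 in WT (adjusted p = 2.54e-07), 0.20 ± 0.11 in KO and -0.24 ± 0.11 in HET, and the difference between HET and WT was 0.62 ± 0.16 (adjusted p = 0.0149). That difference fell to 0.55 without WT DMSO replicate 1 or HET DMSO replicate 2 and to 0.58 under total-count scaling, each below the fold threshold. RAD54B, its relative, had few counts: 54.3, 74.3, 27 and 60.3 in WT in DMSO and 37.8, 24.1, 33.1 and 26 in WT in etoposide. In KO its counts were 76.9, 52.5, 77 and 55.7 and 41.5, 103, 102 and 118, where replicate 1 in etoposide was the low one. HET had 64.7, 119.7, 98 and 88.5 RAD54B counts in DMSO and 91.4, 71.8, 74.7 and 70.1 in etoposide, and HOM had 56.6, 13.4, 35 and 6.37 and 159, 144, 100.5 and 90.1. In etoposide all KO, HET and HOM libraries were above all WT libraries, by 1.48 ± 0.42, 1.33 ± 0.42 and 1.98 ± 0.42 on the log2 scale. The lowest HOM library in DMSO held 3 reads of RAD54B.

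The resection genes did not fall in any of the WT, KO and HET responses. RAD50 counts in WT were 218, 269, 45.4 and 137 in DMSO and 320.0, 365, 288 and 309 in etoposide, all treated libraries being above all untreated ones. RAD50 in KO was 258, 177, 240.4 and 184 in DMSO and 245, 219, 276 and 316 in etoposide, which overlapped. The WT rise of 1.20 ± 0.38 (adjusted p = 0.0105) rested on WT DMSO replicate 3, the lowest library, and was 0.67 without it (adjusted p = 0.0934). HET had 274, 306, 192 and 269.9 RAD50 counts in DMSO and 318, 297, 365 and 313 in etoposide, and HOM had 122, 34.4, 121 and 38.2 and 317, 289.7, 342 and 191. The HOM change of 2.05 ± 0.38 was 1.19 without libraries 2 to 4 in DMSO. RAD50 in etoposide did not pass against WT in KO (-0.29 ± 0.38, 95% interval -1.07 to 0.49), HET or HOM. NBN, which recruits the ATM kinase to the complex, had WT, KO and HET changes of 0.86, 0.90 and 0.28, none past the threshold.

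RBBP8, also called CtIP, starts end cutting. RBBP8 counts in WT were 355, 464, 149 and 353 in DMSO and 317, 346, 291 and 328 in etoposide. KO had 561, 408, 467 and 386 RBBP8 counts in DMSO and 1023, 939, 1056 and 1047 in etoposide. The treated KO libraries were at least 939, above every other WT, KO and HET library. In HET the values were 435, 707, 418 and 568 in DMSO and 673, 642, 551 and 628 in etoposide, and in HOM 433, 112.02, 242 and 78.6 and 981, 999.8, 920.4 and 704. RBBP8 rose in KO (1.17 ± 0.33, adjusted p = 0.00472) and its WT value was 0.07 ± 0.33, but the difference between them did not pass (1.10 ± 0.47, adjusted p = 0.106). In etoposide it exceeded WT by 1.66 ± 0.33 in KO, 0.96 ± 0.33 in HET and 1.48 ± 0.33 in HOM, and the HET call was lost without WT etoposide replicate 3 (adjusted p = 0.0588), HET etoposide replicate 1 (0.057) or HET etoposide replicate 2 (0.0511). RBBP8 has a named pseudogene, RBBP8P1. EXO1, the exonuclease of long-range resection, rose in KO (0.74 ± 0.19) with -0.37 ± 0.19 in WT, and the responses differed (1.11 ± 0.27, adjusted p = 0.00396).

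Of the helicase and dissolution genes, 4 of 5 were higher in KO than in WT in etoposide, beside 11.7% of all genes. WRN was the exception. BLM is the helicase that unwinds joined chromatids together with RMI1 and RMI2. BLM counts in WT were 273, 392, 218 and 289 in DMSO and 175, 207, 200.3 and 165 in etoposide. In KO, BLM was 449, 289, 311 and 293 in DMSO and 577, 504, 606 and 656 in etoposide. All treated WT libraries were below the untreated ones, and all treated KO libraries were above them. HET had 403, 568, 365 and 473 BLM counts in DMSO and 378, 375, 324 and 373 in etoposide, and HOM had 408, 117, 229.5 and 110.4 and 716, 723, 738 and 573. In etoposide BLM was higher than in WT by 1.65 ± 0.26 in KO, 0.96 ± 0.26 in HET and 1.88 ± 0.26 in HOM. The WT fall of -0.62 ± 0.26 (adjusted p = 0.0457) was close to the threshold and was lost in 7 of the 8 fits that left out 1 library (adjusted p of 0.0543 to 0.155) and under total-count scaling (0.366). The HET difference in DMSO of 0.64 was lost in 6 of 8 such fits, with values of 0.51 to 0.68. In etoposide the HET difference from KO (-0.69) was lost in 5 of 8, with values of -0.70 to -0.63.

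RMI1, a subunit of the BLM complex, had 112.47, 149.5, 33.8 and 112.35 counts in WT in DMSO and 102, 110.4, 92.3 and 127 in WT in etoposide. KO values of RMI1 were 157, 110.3, 133 and 137 in DMSO and 297, 254, 297 and 261 in etoposide. HET values of RMI1 were 153, 187, 144 and 143 and 162, 159.9, 161 and 157, and those of HOM were 109, 25.4, 71.8 and 14.9 and 307, 317, 295 and 266. The treated KO and HOM libraries, at 254 or more, lay above every other library of these 4 genotypes. RMI1 rose in KO (1.05 ± 0.38, adjusted p = 0.0267), a call lost without KO DMSO replicate 2 (adjusted p = 0.07), KO etoposide replicate 1 (0.055) or KO etoposide replicate 3 (0.0557). Tested against the WT response, the KO response of RMI1 was not called. RMI2, the other small subunit, was 682, 667, 864 and 654 in WT in DMSO and 252, 232, 225 and 232 in WT in etoposide. In KO its counts were 566, 520.5, 533 and 538 in DMSO and 397, 423, 411 and 384 in etoposide. HET had 445, 447, 492 and 454 RMI2 counts in DMSO and 215, 178, 213 and 213 in etoposide, and HOM had 535, 645, 622 and 684 and 419, 375, 422 and 453. Treated and untreated libraries did not overlap in any genotype. RMI2 fell in WT (-1.60 ± 0.09, adjusted p = 2.26e-14) and HET (-1.16 ± 0.09), its KO change was -0.42 ± 0.09, and the KO and WT responses differed (1.18 ± 0.13). The HET level in DMSO was below that of WT (-0.63), a difference of -0.54 without WT DMSO replicate 3 and -0.35 under total-count scaling, both below the fold threshold.

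BRIP1, a helicase that binds BRCA1, had the largest difference between KO and WT in etoposide. BRIP1 counts in WT were 391, 520.3, 130.3 and 340.1 in DMSO and 132, 164, 146 and 144 in etoposide. KO had 489.6, 354, 472 and 379 BRIP1 counts in DMSO and 437, 458, 470.0 and 522 in etoposide. The WT groups overlapped, DMSO replicate 3 being the lowest of the 8, while every treated KO library was at least 437. HET had 631, 901, 519.7 and 724 BRIP1 counts in DMSO and 395, 412, 316 and 367 in etoposide, and HOM had 363, 64.2, 224 and 48.9 and 393, 407, 414 and 319. In etoposide BRIP1 exceeded WT by 1.68 ± 0.40 in KO (adjusted p = 0.0011), 1.34 ± 0.40 in HET and 1.38 ± 0.40 in HOM. The WT fall of -1.07 ± 0.40 (adjusted p = 0.0268) was lost without WT DMSO replicate 1 (adjusted p = 0.0736), 2 (0.108) or 4 (0.0583) or WT etoposide replicate 1 (0.0581), and under total-count scaling (0.153). Tested against the WT response, the KO response of BRIP1 was not called. In DMSO BRIP1 was higher in HET than in WT (1.14), a difference of 0.73 without WT DMSO replicate 3 (adjusted p = 0.128), which was also lost without HET DMSO replicate 2 (0.0705). WRN, a helicase with exonuclease activity, had changes of -0.31 in WT, -0.31 in KO and -0.34 in HET.

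Of the nuclease genes, EME1 and MUS81, which form a structure-specific nuclease, fell in WT (-0.71 ± 0.10 and -0.60 ± 0.13). EME1 had a KO value of 0.47 ± 0.10 and its KO and WT responses differed (1.18 ± 0.15). The MUS81 change in KO was -0.57 ± 0.13, close to its WT value, with a difference of 0.03 ± 0.18 (95% interval -0.34 to 0.40). SLX4, the scaffold for several nucleases, did not pass in WT (-0.01), KO (-0.23) or HET (-0.00). SLX4 was lower in HET than in WT in DMSO (-0.83 ± 0.13) and in etoposide (-0.82 ± 0.13).

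HET cells in etoposide had genes that were higher than in WT and genes that were lower than in KO. In the HET response 10 of the 37 fell and 1 rose (background 12.7% and 17.5%, median -0.28), and 5 fell under total-count scaling, where 7.42% of all genes did. The test of HET against WT responses passed for 2 of the 37, FANCG and RAD54L, both higher, beside 2.97% of all genes higher and 1.78% lower. It passed for 0 without HET DMSO replicate 2 and for 1 without any of 11 other libraries. Without HET etoposide replicate 2, the library with the fewest counts, it passed for RAD54L (0.62), FANCA (0.67) and FANCC (0.59) and not for FANCG. In etoposide, 10 genes were lower in HET than in KO and 1, BABAM2, was higher (0.89), with 14.9% and 15.7% as background; the 10 were XRCC3, RAD54L, EXO1, BLM, RMI2, FANCG, UBE2T, FANCD2, FANCI and EME1. Under total-count scaling this split was 3 higher and 8 lower, beside 19.6% and 9.98% of all genes. The number higher was 2 without KO etoposide replicate 1 or 3 or HET etoposide replicate 4, and 3 without HET etoposide replicate 3. In DMSO, 6 genes were higher in HET than in WT and 4 lower (background 16.1% and 16.4%), or 10 higher and 1 lower under total-count scaling (24.6% and 9.45% of all genes). The 6 were BARD1 (0.77), BRCA2, NBN (1.26), BLM, BRIP1 and FANCM (0.82). Without WT DMSO replicate 3 the number higher fell to 0, without HET DMSO replicate 2 to 1 and without HET DMSO replicate 4 to 3. The 4 lower genes were FANCG, RMI2, EME1 (-0.59) and SLX4.

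In etoposide, 1 of the genes passed the threshold between HOM and KO cells. RAD51B was lower in HOM (-0.61 ± 0.15, adjusted p = 0.00415), a call lost without KO etoposide replicate 2 or 3 or HOM etoposide replicate 3 or 4, and no other gene passed, beside 7.47% of all genes higher and 4.67% lower. By limma, 4 of the 37 had an adjusted p under 0.05 at any fold and 7 an unadjusted p under 0.05. Besides RAD51B the 4 were RAD52 (-0.42 ± 0.11), FANCC (-0.32 ± 0.08) and FANCL (-0.39 ± 0.14), each lower in HOM by less than 1.5-fold. The 4 HOM and 4 KO libraries did not overlap for these 3 genes. Other members did not overlap either, so this does not single them out. The log2 differences ran from -0.61 to 0.50, and the 95% interval lay within a 1.5-fold difference for 19 of the 37 genes. For the other 18 the interval reached past it. The authors' deposited table for this comparison also gave 0 higher and 1 lower. The values for the clamp were 0.12 ± 0.13 for FANCD2 and 0.04 ± 0.16 for FANCI, and those for the ligase pair were 0.10 ± 0.27 for BRCA1 and 0.00 ± 0.26 for BARD1.

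Results with HOM in DMSO depended on libraries 2 to 4 of that group. With all 4 libraries, 20 of the 37 rose and 9 fell with etoposide in HOM (background 37.2% and 28.5%), and 26 and 1 under total-count scaling, which moved the median of all genes by 1.0 and called 63.5% and 5.86% of them. Without the 3 libraries, 10 rose and 6 fell, beside 20.9% and 17.3% of all genes. The median of the 37 went from 0.71 to 0.28, and that of all genes from 0.16 to 0.06. The 10 were BRCA1 (0.62), BRCA2 (0.99), PALB2 (0.91), RAD51C (0.78), XRCC2 (1.13), RAD50 (1.19), RBBP8 (1.04), EXO1 (0.98), BLM (0.74) and RMI1 (1.43), and the 6 were BABAM1, BABAM2, RAD51B, FANCC, FANCF and MUS81. Leaving out replicate 4 alone cut the genes lower than in WT in DMSO from 22 to 7, those higher than in KO from 6 to 3, and the response differences to 2 downward from WT and 9 upward from KO. Leaving out WT DMSO replicate 2 cut the genes lower than in WT to 12. In the fit without the 3 libraries, HOM in DMSO is 1 library, whose spread is taken from the other groups. In DMSO, 5 genes were higher and 22 lower in HOM than in WT (background 20.0% and 27.6%), and 6 higher and 18 lower than in KO (background 22.6% and 28.6%). Under total-count scaling they were 0 and 25 against WT (3.25% and 45.3% of all genes) and 1 and 25 against KO (5.65% and 44.3%). Without the 3 libraries these counts were 0 and 0 against WT (1.03% and 3.51% of all genes), and 0 and 1 (RAD52, -0.69) against KO (4.37% and 4.29%). The HOM response differed from that of WT for 22 genes upward and 4 downward (background 26.2% and 23.9%), or 32 and 1 under total-count scaling (48.5% and 5.36% of all genes). Without the 3 libraries it differed for 16 and 1, beside 8.97% and 9.48% of all genes, among them FANCI (1.58), FANCD2 (1.48) and RAD54B (1.82). From KO it differed for 15 upward and 6 downward (background 24.4% and 19.3%), or 23 and 1 under total-count scaling (46.8% and 1.39%), and for 0 and 1 (BABAM2, -0.83) without the 3 libraries (1.07% and 0.779%).

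The genes that fell in WT, KO and HET alike, BABAM2, FANCC and RAD51B, are 3 of the 4 members whose gene spans 200 kb or more on GRCh38 (GENCODE release 29). BABAM2 spans 449 kb on chromosome 2, FANCC 328 kb on chromosome 9 and RAD51B 910 kb on chromosome 14. RBBP8, the other one at 228 kb, rose in KO. Of the 1356 tested genes of that span, 26.3% fell in WT, 42.6% in KO and 25.4% in HET. In KO, 9.43% of genes of 30 to 100 kb fell, and 0 of the 17 members of that span did. Spearman correlations of span with log2 change over the 37 members were -0.22 in WT, -0.10 in KO and -0.18 in HET. Over all genes with a known span they were -0.006, -0.076 and -0.006. A role of gene span was not tested.

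Other genes of these pathways, a list of 63 tested genes, were counted the same way. In WT 6 rose and 15 fell with etoposide, and in KO 14 rose and 3 fell. Of all genes 20.1% rose and 14.9% fell in WT, and 18.1% and 14.5% in KO. In etoposide 26 were higher in KO than in WT and 2 lower, beside 11.7% and 15.0% of all genes, with a median of 0.40. The largest were MND1 (1.98), a meiotic strand-exchange cofactor, and RAD51AP1 (1.85), a strand-exchange cofactor, while ERCC1 (-0.71), a nuclease subunit, and FAAP100 (-0.61), of the core complex, were lower.

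Replication and proliferation genes were counted beside the set. Of 22 such genes, 17 fell and 2 rose in WT, 1 fell and 5 rose in KO, and 12 fell and 2 rose in HET. Among all genes 14.9% fell and 20.1% rose in WT, 14.5% and 18.1% in KO, and 12.7% and 17.5% in HET. In etoposide, 21 were higher in KO than in WT, 10 in HET and 20 in HOM, and none was lower. The shares of all genes higher were 11.7%, 10.1% and 14.0%, and those lower 15.0%, 13.2% and 14.7%. Against KO in etoposide, 16 were lower in HET, beside 14.9% of all genes. In HOM 0 passed in either direction, beside 7.47% of all genes higher and 4.67% lower. In the HOM response 9 rose and 6 fell, beside 37.2% and 28.5% of all genes, with a median of 0.07 beside 0.71 for the 37 genes. Both medians use the HOM libraries in DMSO that stood apart. Without those libraries the median of the 37 genes was 0.28. The value of the 22 genes without them is not given here, so the gap between the medians may rest on those libraries. The HET and WT responses differed for 8 of the 22, all higher, beside 2 of the 37 and 2.97% of all genes. RRM2, the small subunit of ribonucleotide reductase, was the highest in KO against WT (1.77), and GINS2, of the replicative helicase, fell most in WT (-2.22). In bulk RNA, fewer cells in S phase and less RNA per cell cannot be told apart, and the part of replication genes in the members' changes was not tested.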

How the data were processed

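Poly-A RNA-seq libraries from U2OS cells were compared in 8 groups of 4. Per the submitters' processing notes, reads were quantified with kallisto and analysed with DESeq2 on GRCh38 (hg38); versions are not given in the sources used here, nor is the strand setting. The authors' deposited matrix is on a log2-like scale, as variance stabilization gives. The authors' deposited tables gave a mean normalized signal, log2 fold changes, a test score, p-values and adjusted p-values for 6 comparisons.

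Inverting that transformation gave normalized counts, and their mean over libraries differed from the deposited mean signal by at most 4.7e-14 of its value. Dividing by the value of 1 read gave whole counts, within 0.01, for 100.0% of values. Genes reaching 10 normalized counts in 4 or more libraries were tested with limma 3.58.1 in R 4.3.3 (moderated test with trend, two-sided) on log2(normalized count + 1). A single fit held all 32 libraries and 17 contrasts, and its SE pools the spread of all 8 groups, so libraries that vary widely in HOM in DMSO widen it elsewhere. P-values were adjusted by the Benjamini-Hochberg method over 16824 genes, and the threshold was an adjusted p below 0.05 together with a 1.5-fold change. Fold changes are on the log2(normalized count + 1) scale and understate the change of low genes. The fit was tested on simulated data for the WT response, with the same spread setting in every group. That simulation does not cover the unequal spread of the groups here.

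The members, lists and tests were chosen with earlier results of these data known. Values of every library are given for BRCA1, BRCA2, FANCD2, FANCC and RAD50, for the 4 passing members with the largest change in the WT response and in KO against WT in etoposide, and for the 3 with the largest change in each response difference. Replicate numbers did not pair the samples. Exons of 22 members overlap another gene, 18 of them on the opposite strand, and those reads cannot be told apart. Positions came from GENCODE release 29 on GRCh38, and promoter windows from RefSeq on GRCh38.p14. Sequences of 3 members on chromosome 8 were not used here. Alternatives were another pseudocount, other filters, other scalings, the compared groups alone, leaving out libraries and a replicate block. The level of the targeted gene is not reported here.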

Additional observations from a re-analysis of the deposited data

Results flagged for a closer look

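In 6 cases 1 library of a group of 4 lay far from the other 3. RMI2 stood at 864.2 in WT DMSO replicate 3, with the others at 653.7 to 682.4, and at 178.4 in HET etoposide replicate 2, the library with the fewest counts, with the others at 212.6 to 215.1. FANCI was 1240 in HET etoposide replicate 3, with the others at 1405 to 1423. BLM was 448.7 in KO DMSO replicate 1 (others 289.1 to 310.8), 323.8 in HET etoposide replicate 3 (others 373.4 to 378.5) and 573.1 in HOM etoposide replicate 4 (others 716.2 to 737.8). In all, 120 groups of 15 genes were examined, and chance alone gives about 1 in 20, or 6.

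The following responses to etoposide differed between genotypes in limma's test of the difference, given as log2 values. Between KO and WT the largest differences were FANCI at 1.67, BLM at 1.44 and FANCD2 at 1.44. Between HET and WT they were FANCG at 0.68 and RAD54L at 0.62. Between HOM and WT they were RAD54B at 3.23, BRIP1 at 2.65 and BABAM2 at -2.60, and between HOM and KO they were RAD54B at 2.09, RAD50 at 1.75 and RMI1 at 1.75. The HOM differences use libraries 2 to 4 of HOM in DMSO, which stand apart. Without those libraries, the difference from WT was 1.82 for RAD54B, 1.15 for BRIP1 and -1.78 for BABAM2, and the difference from KO was 0.68 for RAD54B, 0.89 for RAD50 and 0.38 for RMI1.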

How the results depend on the processing

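The planned count test and its TMM scaling were not run, because the deposited matrix holds log2 values. Total-count scaling and voom weights on the recovered counts were used. The voom fit and the fit of other comparisons without libraries 2 to 4 of HOM in DMSO were chosen after seeing the data. Of 135 named gene results, recomputed under each alternative that bears on them, 2340 values kept direction and side of the threshold, 201 kept direction only and 10 reversed, all 10 without libraries 2 to 4 of HOM in DMSO. The reversed log2 values were, for HOM against WT in DMSO, 0.24 (BRCA1), 0.23 (BRIP1), 0.50 (RBBP8), 0.51 (BLM), 0.16 (RAD54B) and 0.28 (RMI1); for HOM against KO in DMSO, 0.31 (BLM); and for HOM minus KO responses, -0.09 (BRIP1), -0.13 (RBBP8) and -0.08 (BLM).

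Member counts that moved by over 1.5 times are given as higher or lower counts; the cause was not tested. Total-count scaling gave 2 higher and 10 lower in the WT response, 14 higher in KO, 5 lower in HET and 1 lower in HOM. In DMSO it gave 10 higher and 1 lower for HET against WT, 0 higher for HOM against WT and 1 higher for HOM against KO. In etoposide it gave 17 higher and 0 lower for HET against WT, 1 lower for HOM against WT, 3 higher for HET against KO and 0 lower for HOM against KO. For response differences it gave 1 higher for HET minus WT, 1 lower for HOM minus WT, and 23 higher and 1 lower for HOM minus KO. Of all genes, this scaling called 9.24% lower for HOM against WT and 2.70% lower for HOM against KO, both in etoposide. It called 2.94% higher for HET minus WT. Without libraries 2 to 4 of HOM in DMSO, the counts were 10 higher in the HOM response, 0 higher and 0 lower for HOM against WT in DMSO, 0 higher and 1 lower for HOM against KO in DMSO, 1 lower for HOM minus WT, and 0 higher and 1 lower for HOM minus KO. Elsewhere that fit gave 2 higher in WT, 11 higher for HET against WT in DMSO, 2 lower for HOM against KO in etoposide and 4 higher for HET minus WT. In either direction it called 37.9%, 35.4%, 14.4% and 8.07% of all genes there. The main fit called 35%, 32.5%, 12.1% and 4.75%. The compared groups alone gave 1 higher and 1 lower for HOM against WT in DMSO, 9 lower for HOM against KO in DMSO, 2 lower for HOM against KO in etoposide, 4 higher for HET minus WT and 6 higher for HOM minus KO. That setting called 6.89% of all genes in either direction for HOM against WT in DMSO, where the main fit called 47.6%. These shares were 28.8% and 51.2% for HOM against KO in DMSO, and 14.8% and 12.1% for HOM against KO in etoposide. For HET minus WT they were 7.13% and 4.75%, and for HOM minus KO 27.9% and 43.7%. Voom gave 2 higher in WT, 11 higher for HET against WT in DMSO and 2 lower for HOM against KO in etoposide. It called 36.8%, 34.4% and 14.1% of all genes there, beside 35%, 32.5% and 12.1% in the main fit. No filter gave 3 higher for HET against WT in DMSO and 1 higher for HET minus WT. Of the 30613 genes then tested, 17.3% and 2.47% were called, beside 32.5% and 4.75% in the main fit. The deposited values as they stand gave 13 lower for HOM against WT in DMSO, 1 lower for HOM against WT in etoposide and 0 lower for HOM against KO in etoposide, and a pseudocount of 5 gave 0 lower for the last. With the deposited values 36.3%, 23.2% and 8.48% of all genes were called, beside 47.6%, 28.6% and 12.1% in the main fit. The pseudocount of 5 called 12.8% for the last.

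Leaving out 1 library at a time gave 20 to 21 members higher in KO than in WT in etoposide, 18 to 20 in HOM and 8 to 10 in HET. It gave 1 to 2 higher and 13 to 16 lower in the WT response, 0 to 9 higher for HET against WT in DMSO, 7 to 22 lower for HOM against WT in DMSO, 3 to 7 higher for HOM against KO in DMSO, 1 to 3 higher for HET against KO in etoposide and 0 to 1 lower for HOM against KO in etoposide. For response differences it gave 0 to 3 higher for HET minus WT, 2 to 4 lower for HOM minus WT and 9 to 18 higher for HOM minus KO.

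Samples with the same replicate number did not deviate together (correlations of -0.18 to 0.36 over the compared groups), and no comparison had every library best correlated with its own number. With the replicate block, 3 members in place of 2 had a higher response in HET than in WT, and no named gene call changed. A library of 8.05 M counts limits HET in etoposide, and RAD54B at 3 reads limits HOM in DMSO.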
